A study of Mus musculus with 6 samples.

Results

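The genes described here are the mouse DNA methyltransferase genes Dnmt1, Dnmt3a, Dnmt3b and Dnmt3l, with Uhrf1. The loci were taken as 5 fixed intervals of the mm9 genome build, set around the genes by name, with no threshold on a measured value. They were chromosome 9 from 20705001 to 20765000 for Dnmt1, chromosome 12 from 3800001 to 3920000 for Dnmt3a, chromosome 2 from 153470001 to 153520000 for Dnmt3b, chromosome 10 from 77500001 to 77530000 for Dnmt3l and chromosome 17 from 56438001 to 56468000 for Uhrf1. Together they span 290.0 kb and hold 5567 of the 20807838 nuclear cytosines listed for 5-hydroxymethylcytosine (5hmC) and 2191 of the 6246187 listed for 5-formylcytosine (5fC). The summed reads were 78386 for 5hmC and 34058 for 5fC. Each locus was described in bins of 2 kb and against the 500 kb on each side of it, called its flanks. Gene ends were not placed in mm9, so an interval may reach past its gene. A site in an interval is thus not shown to lie in the gene that names it.

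The DNA came from E14 mouse embryonic stem cells, an established line, grown with serum and LIF on gelatin. Per the labels, 2 technical 5hmC libraries and 2 technical 5fC libraries came from a culture at passage 14, and 2 further technical 5hmC libraries from a culture at passage 12. The assay, Pvu-Seal-seq, pairs PvuRts1I, an enzyme that cuts near 5hmC, with chemical capture. Single cytosines are assigned from the cut ends, by steps not given in the sources used here. Each mark has 1 pooled read count per listed cytosine, so no value below has a replicate error, no test between conditions was possible, and the intervals given, 95% Wilson intervals, reflect counting error alone. Neighbouring cytosines share fragments and sequence and are not replicates, so these intervals are narrower than the real uncertainty. A cytosine outside a list is not shown to lack the mark. The identity of the cells could not be checked against marker genes in a table of DNA sites.

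DNMT1 copies methylation onto the new strand after replication, and UHRF1 brings it to hemimethylated CG. DNMT3A and DNMT3B methylate unmethylated DNA, and DNMT3L, which has no catalytic activity of its own, stimulates them. TET enzymes oxidise the resulting 5-methylcytosine, first to 5hmC and then to 5fC. The loci here are thus the genes of proteins that make 5-methylcytosine or help in making it.

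RefSeq gives 12 windows around transcript starts for the 5 genes (250 bases before to 50 after each start), in build GRCm38.p6. No mm9 annotation was used here, so the letters of each window were set against the listed cytosines of its locus and 20 kb on each side, asking at which position every listed cytosine falls on a matching base, strand and dinucleotide. This placed 2 windows, both of Dnmt3l. The window of the first Dnmt3l start matched at mm9 positions 77504782 to 77505081 with 15 of 15 listed cytosines, against 3 in the next best position. The window of the third start matched at 77517830 to 77518129 with 7 of 7, again against 3. The 2 positions lie 13048 bases apart, the same distance as in GRCm38.p6. The 250 bases before each of these starts are shown because the listed cytosines can be read on them directly. Capitals mark listed cytosines of either mark, a capital G standing for a listed cytosine on the opposite strand.
Dnmt3l first start, chr10:78042037-78042286 (GRCm38.p6, plus strand): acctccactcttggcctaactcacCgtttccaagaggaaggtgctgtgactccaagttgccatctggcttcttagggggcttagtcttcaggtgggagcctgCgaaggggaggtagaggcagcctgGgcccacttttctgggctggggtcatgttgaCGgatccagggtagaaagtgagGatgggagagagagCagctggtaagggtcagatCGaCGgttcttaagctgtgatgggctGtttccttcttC
Dnmt3l, the third start, chr10:78055085-78055334 (GRCm38.p6, plus strand): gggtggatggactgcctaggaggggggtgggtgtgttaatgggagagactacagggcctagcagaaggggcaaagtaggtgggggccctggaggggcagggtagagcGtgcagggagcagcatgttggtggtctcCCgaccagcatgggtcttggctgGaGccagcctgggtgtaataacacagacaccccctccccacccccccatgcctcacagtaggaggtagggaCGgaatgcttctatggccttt

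Listed cytosines ran right up to the first Dnmt3l start, but those nearest to it were not CG. The closest, 1 base before the start, was a CA cytosine with 2 5hmC reads, the least count in the list. The nearest listed CG cytosine lay 34 bases before the start. The 300-base window of this start has 6 CG dinucleotides, or 12 CG cytosines. The 5hmC list held 8 of them and the 5fC list 6. All listed cytosines of the window held 198 5hmC reads and 82 5fC reads. The deepest 5hmC cytosine lay 226 bases before the start with 58 reads, and the same base held 5 5fC reads. At 35 bases before the start the read counts were close to level, 23 for 5hmC and 24 for 5fC. The counts come from separate libraries, and over the nuclear genome 5fC reads were 0.387 times 5hmC reads. Level counts thus do not show level amounts of the marks. The window of the third start has 3 CG dinucleotides, and each list held 3 of its 6 CG cytosines. There the cytosine 20 bases before the start, on the opposite strand, held 37 5hmC and 46 5fC reads, whereas that 114 bases before it held 46 and 9.

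**Figure D1:**
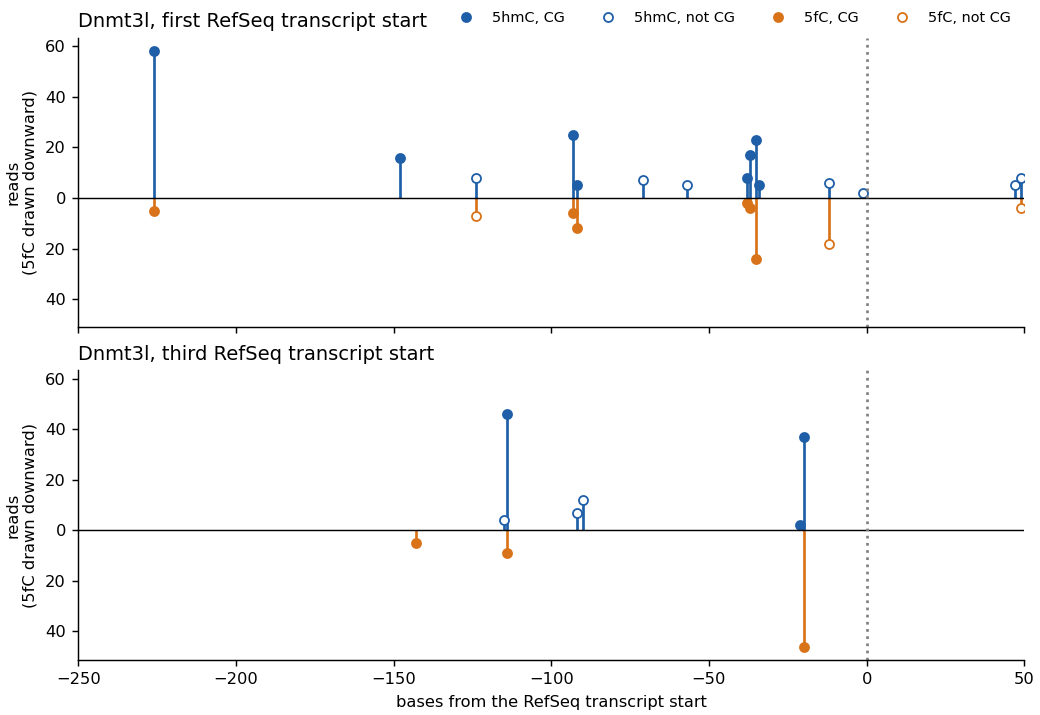
Reads per listed cytosine (vertical axis, 5hmC upward and 5fC downward) against the distance in bases from the RefSeq transcript start, for the first and the third start of Dnmt3l; filled points are CG cytosines and open points are not. The 5hmC reads are highest 226 bases before the first start (58), and 5fC exceeds 5hmC 20 bases before the third (46 against 37).

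Several starts of the other 4 genes are far richer in CG. Under the conditions given below, few of their cytosines can be in the lists. The median over 32851 RefSeq start windows was 7 CG, and 11.7% held at least 30. The windows of Dnmt3a held 46, 47 and 18, those of Uhrf1 12 and 33, that of Dnmt3b 30 and those of Dnmt1 2, 12 and 33. None of these 9 windows, nor the second window of Dnmt3l with 4 CG, met the rule for placing, which asked for at least 7 listed cytosines and 2 times those of the next position. The match still sets a limit. It holds if mm9 letters are the same, the window lies in the scanned stretch and no listed cytosine falls on its first or last base. A window can then hold no more listed cytosines than the best fully matching position. That limit was 7, 6 and 5 for Dnmt3a, against 92, 94 and 36 CG cytosines in the letters. For Dnmt3b it was 6 against 60, for the Uhrf1 windows 4 against 24 and 5 against 66, and for the Dnmt1 windows 3 against 4, 4 against 24 and 7 against 66. For the second window of Dnmt3l it was 4 against 8. Since placing itself asked for at least 7 listed cytosines, the placed Dnmt3l windows could not be poor in them. The difference from the other windows is thus partly set by that rule. Of the sequences that were not placed, 3 are shown, with every CG in capitals, since the listed positions in them are not known.
Dnmt3a first start, chr12:3806730-3806979 (GRCm38.p6, plus strand): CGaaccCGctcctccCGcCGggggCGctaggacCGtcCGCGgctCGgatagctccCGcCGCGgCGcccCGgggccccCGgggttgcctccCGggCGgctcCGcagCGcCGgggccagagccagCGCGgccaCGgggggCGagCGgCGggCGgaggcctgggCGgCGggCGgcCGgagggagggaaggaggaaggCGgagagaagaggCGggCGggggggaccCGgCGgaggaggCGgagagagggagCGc
Dnmt3b start, chr2:153649199-153649448 (GRCm38.p6, plus strand): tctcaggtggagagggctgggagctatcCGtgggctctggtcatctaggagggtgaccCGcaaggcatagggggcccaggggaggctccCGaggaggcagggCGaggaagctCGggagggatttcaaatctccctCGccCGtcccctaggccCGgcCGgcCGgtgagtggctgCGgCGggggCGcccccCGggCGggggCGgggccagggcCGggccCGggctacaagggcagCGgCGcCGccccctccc
Uhrf1 second start, chr17:56304063-56304312 (GRCm38.p6, plus strand): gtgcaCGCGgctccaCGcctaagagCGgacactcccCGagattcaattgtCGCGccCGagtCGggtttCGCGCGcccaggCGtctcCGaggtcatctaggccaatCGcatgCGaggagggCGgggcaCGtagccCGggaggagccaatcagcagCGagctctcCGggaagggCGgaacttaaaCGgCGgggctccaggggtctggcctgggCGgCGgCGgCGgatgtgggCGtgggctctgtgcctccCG

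Each of the loci had at least 1 stretch of about 1 kb or more in which no cytosine was listed for either mark. In Dnmt3a it ran from 3806238 to 3808130, 1893 bases near the low-coordinate end, where a gene on the plus strand such as Dnmt3a begins. In Uhrf1, also on the plus strand, it ran from 56442290 to 56444279, 1990 bases. In Dnmt1, a gene on the minus strand, the longest lay towards the high-coordinate end, from 20756172 to 20757954, and was 1783 bases long. Dnmt3b, also on the plus strand, had 3 stretches of at least 1 kb without a listed 5hmC CG. Of the longer ones, 1397 bases from 153474893 to 153476289 lay near its low-coordinate end. The longest, 1932 bases from 153517016 to 153518947, lay near the high-coordinate end, away from where a plus-strand gene begins. Dnmt3l, on the plus strand as well, had none of 1 kb. Its longest was 997 bases from 77528558 to 77529554, again near the high-coordinate end. Whether these stretches hold the transcript starts could not be settled without an mm9 annotation, and whether reads can be mapped in them was not tested. Stretches of at least 1 kb without a listed 5hmC CG were few, 1 in Dnmt1, 2 in Dnmt3a, 3 in Dnmt3b, none in Dnmt3l and 1 in Uhrf1, so rates made from them are imprecise and their differences from the flanks were not tested. Per 100 kb there were 1.67 in Dnmt1 against 10.4 and 4.60 in its lower and higher flank, 1.67 in Dnmt3a against 7.60 in both, 0 in Dnmt3l against 7.20 and 5.20, and 3.33 in Uhrf1 against 11.6 and 5.80. Dnmt3b, with 6 per 100 kb, lay between its flanks at 5.20 and 10.4.

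Listed cytosines of both marks were denser in Dnmt1 than in the other loci, and Dnmt3b was the sparsest. Densities here are per kb of sequence and not per CG or cytosine present, since no mm9 sequence was used. Differences in CG content between loci and flanks are therefore not taken out. Dnmt1 held 1648 5hmC sites and 671 5fC sites in 60.0 kb, or 27.5 and 11.2 per kb. Its flanks held 14.4 and 5.24 per kb, so the locus was 1.90 times as dense for 5hmC (interval 1.81 to 2.00) and 2.13 times for 5fC (1.97 to 2.31). The flanks themselves differed, with 11.1 5hmC sites per kb on the lower and 17.8 on the higher side, and the locus lay above both. Among 42444 nuclear windows of 60 kb with any listed site, 0.530% held at least as many 5hmC sites as Dnmt1 and 1.01% as many 5fC sites.

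Uhrf1, whose protein works with DNMT1, was next in density with 590 5hmC sites and 257 5fC sites in 30.0 kb, or 19.7 and 8.57 per kb. That was 1.28 times its flanks for 5hmC (interval 1.18 to 1.39) and 1.63 times for 5fC (1.44 to 1.85). Of windows of 30 kb, 6.60% held as many 5hmC sites or more and 4.41% as many 5fC sites.

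Dnmt3l held 544 and 206 sites in the same length, or 18.1 and 6.87 per kb, 1.28 times its flanks for 5hmC (1.17 to 1.39) and 1.5 times for 5fC (1.30 to 1.72). Windows of 30 kb with at least as many sites made up 9.26% for 5hmC and 8.85% for 5fC. RefSeq lists Aire as overlapping Dnmt3l, so cytosines near 1 end of the interval cannot be given to 1 gene.

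Dnmt3a, the longest interval, held 2115 5hmC and 868 5fC sites in 120 kb, or 17.6 and 7.23 per kb. Against its flanks it was 1.44 times as dense for 5hmC (1.37 to 1.5) and 1.74 times for 5fC (1.62 to 1.87). As many sites or more were found in 8.59% and 6.23% of windows of 120 kb. The 5hmC densities of Uhrf1, Dnmt3l and Dnmt3a lay close together, and no replicate error exists by which to order them.

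Dnmt3b held 670 5hmC and 189 5fC sites in 50.0 kb, or 13.4 and 3.78 per kb. Its 5hmC density was 1.18 times that of the flanks (1.09 to 1.28) and its 5fC density 1.03 times (0.894 to 1.20), an interval that includes 1. With flanks of 250 kb the 5hmC value turned to 0.977 (0.902 to 1.06) and the 5fC value to 0.802 (0.692 to 0.930), an interval below 1. The 5fC value was also below 1 with sites of at least 10 reads, 0.946, and by reads, 0.966. With CG sites alone it was 1.05 (0.892 to 1.25). The 5hmC value stayed above 1 with sites of at least 10 reads, 1.19 (1.06 to 1.33). It was 1.23 with CG sites alone (1.12 to 1.34) and 1.14 by reads. So the small 5hmC excess of this gene depended on the flanks used, and no excess of 5fC is shown. Its flanks were uneven, with 13.8 5hmC and 5.16 5fC sites per kb on the lower side and 8.94 and 2.14 on the higher, and the locus lay between them for both marks. Windows of 50 kb with at least as many sites made up 21.7% for 5hmC and 25.1% for 5fC. Every locus stood above the mean of its chromosome, which lay between 7.29 and 8.93 sites per kb for 5hmC and between 2.07 and 2.77 for 5fC.

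**Figure D2:**
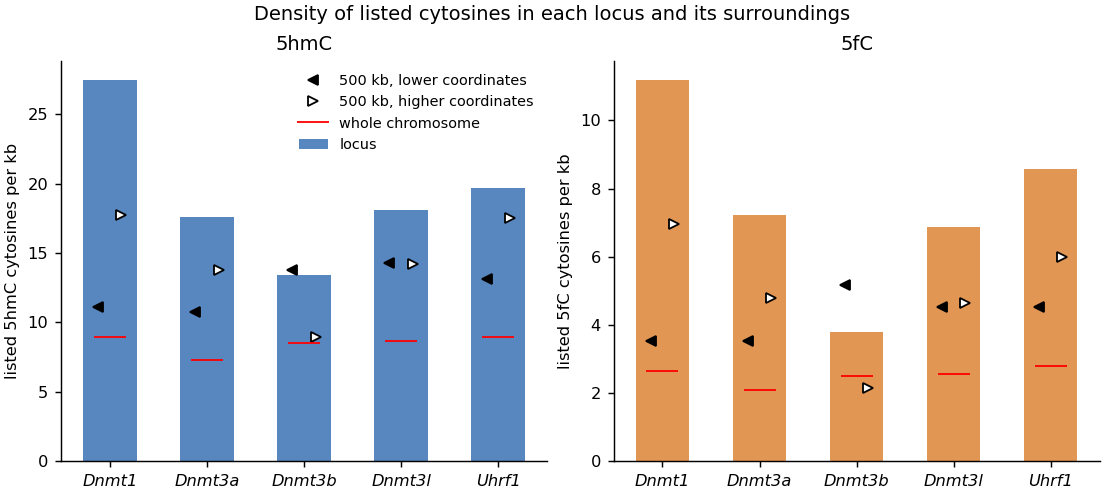
Listed cytosines per kb in each locus (bars), in the 500 kb at lower and higher coordinates (filled and open triangles) and over its whole chromosome (red lines), for 5hmC on the left and 5fC on the right. The bars of Dnmt1 (27.5 and 11.2 per kb) stand above both triangles, while those of Dnmt3b (13.4 and 3.78) lie between them.

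In bins of 2 kb the loci had listed CG cytosines throughout. None of the 145 bins lacked a listed 5hmC CG, whereas 9.18% of nuclear bins lacked one, a share that includes bins to which reads may not map. Bins with 10 or fewer such cytosines numbered 12 of 145, against 55.7% of nuclear bins. Bins at or above the 90th percentile of the genome, 40 5hmC sites, numbered 69 of 145, where the background was 10.3%. For 5fC, with a limit of 15 sites, they numbered 60, where the background was 10.1%. By locus the 5hmC count was 26 of 30 bins in Dnmt1, 23 of 60 in Dnmt3a, 8 of 15 in Dnmt3l, 8 of 15 in Uhrf1 and 4 of 25 in Dnmt3b. The flanks also lay above the genome, with 23.2%, 16.4%, 23%, 29.6% and 13.8% of their bins past the limit, in the same order of genes. Dnmt3b, at 16.0% of its bins, was thus close to its own flanks. The 5fC counts were 20, 25, 5, 8 and 2 in that order of genes, and the flanks held 25%, 16.8%, 22.2%, 26.4% and 14.4%. For 5fC Dnmt3b, at 8% of its bins, lay below both its flanks and the nuclear background.

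**Figure D3:**
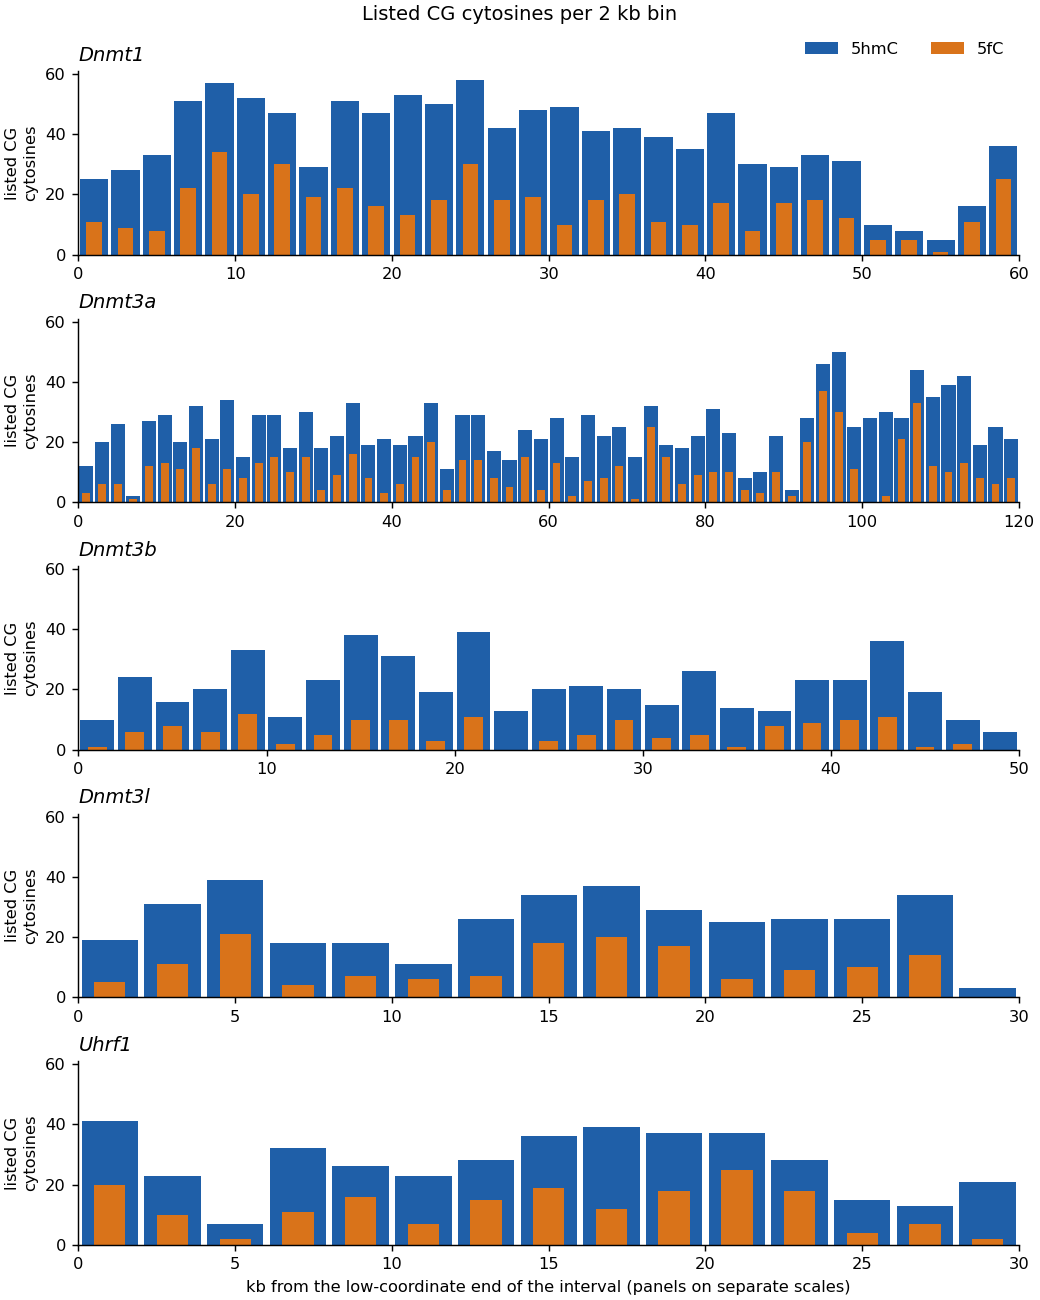
Listed CG cytosines (vertical axis) in each 2 kb bin along the 5 intervals, from their low-coordinate ends, with 5hmC as wide bars and 5fC as narrow bars drawn over them. Dnmt1 stays at 25 or more 5hmC CG in its first 25 bins and falls to 5 near its high-coordinate end, and Dnmt3a has 2 in the fourth bin.

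Along Dnmt1 the listed sites formed a broad plateau that ended before the high-coordinate end. From the lowest bin up to the bin ending at 20755000, each held between 25 and 58 5hmC CG cytosines. The next 3 bins, from 20755001 to 20761000, held 10, 8 and 5, and the last bin rose again to 36. In 4 equal parts of the interval the density was 29.9, 36.7, 27.5 and 15.7 5hmC sites per kb and 12.9, 14.3, 9.53 and 7.93 5fC sites per kb. The bin with the most 5hmC sites, from 20713001 to 20715000, held 94 of them and 52 5fC sites. It also held the most 5fC reads of the interval, 982, beside 1299 5hmC reads.

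Dnmt3a was even over most of its length and denser at its end. Its 4 equal parts held 16.3, 16.2, 15.6 and 22.4 5hmC sites per kb and 6.70, 6.47, 6.27 and 9.5 5fC sites per kb. The bins from 3894001 to 3896000 and from 3896001 to 3898000 both held 77 5hmC sites, the most of the interval, with 53 and 37 5fC sites. The former also had the most 5fC reads, 864, beside 1135 5hmC reads. The fourth bin, from 3806001 to 3808000, held 3 5hmC sites, the fewest of any bin in the 5 loci, and 1 5fC site.

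Just beyond the dense bins of Dnmt3a the marks parted. From 3899990 to 3902875, a stretch of 2886 bases, no cytosine was listed for 5fC, while 57 were listed for 5hmC, 49 of them CG, with 679 reads, a median of 10.0 and a maximum of 46. In bins, 3900001 to 3902000 held 28 5hmC CG and no 5fC site, and 3902001 to 3904000 held 30 5hmC CG and 2 5fC CG with 20 reads. The bin after them, to 3906000, held 28 5hmC CG and 21 5fC CG, with 545 and 491 reads. These bins were picked after their values were seen. Of the 148192 nuclear bins with at least 28 5hmC CG, 1.37% held at most 2 5fC CG and 0.0837% held none. In the 5 loci 68 bins passed the 5hmC limit, and these 2 were the only ones with so few 5fC CG. Why 5fC sites are missing there was not tested.

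Dnmt3b had no dense core. Its 4 equal parts held between 11.8 and 16.7 5hmC sites per kb and between 3.20 and 4.72 5fC sites per kb. Its richest bin for 5hmC, from 153484001 to 153486000, held 54 5hmC and 17 5fC sites. The most 5fC reads, 301, fell in the third bin, from 153474001 to 153476000, beside 422 5hmC reads. The dyads at 153474374 and 153474391, just before the empty stretch that starts at 153474893, gave 104 and 67 of them. A stretch without 5fC sites was also seen here, from 153491292 to 153494393, with 30 5hmC sites of lower median reads, 6.5.

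Dnmt3l was densest in the third part when cut in 4, at 22.9 5hmC and 9.60 5fC sites per kb, against 14.8 and 5.47 in the second. The third and the eighth bin, from 77504001 to 77506000 and from 77514001 to 77516000, both held 56 5hmC sites, and the third is the bin with the first RefSeq start. That bin held 31 5fC sites, the most of the interval. The most 5fC reads, 566, lay from 77518001 to 77520000, a bin that the window of the third start reaches into. The last bin held 7 5hmC sites and no 5fC site.

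Uhrf1 was densest in the third part as well, at 27.2 5hmC and 13.1 5fC sites per kb, and sparsest in the fourth at 13.5 and 4.93. The first bin held the most 5hmC sites, 66, and 998 5hmC reads. In RefSeq the next gene at lower coordinates is Arrdc5, and whether this bin lies in Uhrf1 was not tested. The third bin, from 56442001 to 56444000, fell to 9 5hmC and 3 5fC sites. The most 5fC reads, 693, lay from 56458001 to 56460000, beside 984 5hmC reads.

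The balance of the marks differed among the genes. The ratio of 5fC to 5hmC reads was 0.526 in Uhrf1, 0.452 in Dnmt1, 0.437 in Dnmt3a, 0.387 in Dnmt3l and 0.326 in Dnmt3b, and 0.387 over the nuclear genome. Divided by the ratio in the flanks it was 1.39 for Uhrf1, 1.09 for Dnmt1 and for Dnmt3a, 1.04 for Dnmt3l and 0.844 for Dnmt3b. The values of Uhrf1, Dnmt1, Dnmt3a and Dnmt3b kept their side of 1 in each alternative tried, whereas that of Dnmt3l fell to 0.989 with sites of at least 10 reads. Median reads per 5fC site were 14.0 in Uhrf1 against 11.0 in its flanks, and between 11.0 and 13.0 in the other loci. For 5hmC the medians lay between 8.00 and 10.0 in the loci and were 9 in all flanks. No locus or flank held a cytosine with more than 1000 reads.

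Across the 145 bins, 5hmC and 5fC reads rose together, with a Spearman correlation of 0.86 over all bins and between 0.80 and 0.97 within a locus. This is a description, since bins share sequence composition and enzyme and are not replicates.

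**Figure D4:**
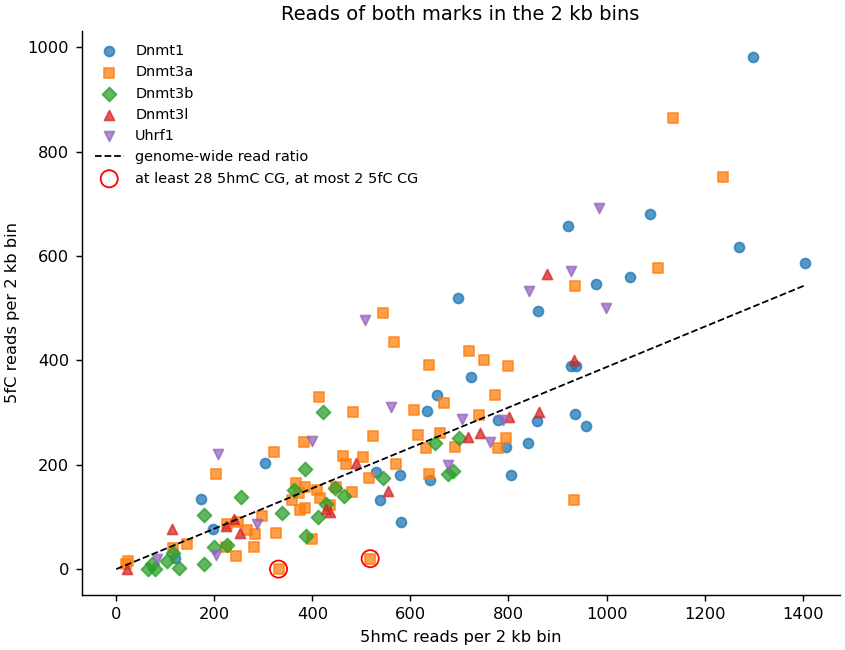
5fC reads against 5hmC reads in each of the 145 bins of 2 kb, by locus, with the genome-wide read ratio of 0.387 as a dashed line and the 2 bins of Dnmt3a with at least 28 5hmC CG but at most 2 5fC CG circled. Most Uhrf1 bins lie on or above the line and most Dnmt3b bins on or below it.

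Single dyads showed how unevenly reads fell on the strands. A CG dyad is a CG with a cytosine on each strand, named here by the position of its plus cytosine. In Dnmt1 the dyad at 20734841 held by far the most 5fC reads of any in the 5 loci, 321 on the plus and 40 on the minus strand, against 131 and 0 for 5hmC. The next of Dnmt1, at 20713412, held its 120 5fC and 116 5hmC reads on the minus strand alone. The Dnmt1 dyads with the most 5hmC, at 20739218, 20763687 and 20706955, were different ones and were read on both strands, with 141, 138 and 136 reads for 5hmC beside 62, 58 and 73 for 5fC.

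In Dnmt3a the leading 5fC dyads were at 3845207, with 126 plus and 24 minus reads, and at 3801917, with 0 and 133. The leading 5hmC dyad, at 3866957, held 111 plus and 12 minus 5hmC reads but 35 plus and 61 minus 5fC reads, so the marks favoured opposite strands. In Dnmt3b the dyad at 153474374 led for 5fC with 104 plus reads and no minus read, beside 99 and 2 for 5hmC. In Dnmt3l the leading 5fC dyad, at 77519251, held 18 plus and 71 minus 5fC reads, and its 58 5hmC reads were all on the minus strand. In Uhrf1 the leading 5fC dyad, at 56439083 in the first bin, held 41 plus and 157 minus 5fC reads. Its 5hmC reads were 23 and 69. The second, at 56464159, held 104 5fC reads and only 21 5hmC reads. Among the 3 deepest dyads of each mark per locus, that at 153474374 in Dnmt3b was the only one in both groups, as second for 5hmC with 101 reads.

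Both strands were listed for 45.9% of the 2664 5hmC dyads of the loci (interval 44.0 to 47.8%) and for 22.0% of the 1313 5fC dyads (19.9 to 24.3%). By gene the 5hmC share ran from 44.6% in Dnmt3a to 47.8% in Dnmt1, and the flanks from 41.8% to 43.5%. Each locus was higher than its flanks, but the intervals of locus and flanks overlapped for all 5. For 5fC the shares ran from 15.3% in Dnmt3b to 26.5% in Uhrf1, where the flanks held 19.9%, with overlapping intervals. These shares depend on the least count accepted: with at least 10 reads per site the 5hmC share was between 23.1% and 29.7% by gene, and the 5fC share between 9.76% and 20.7%.

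Most cytosines of the 5fC list were found in the 5hmC list as well, at the identical base. This was the case for 77.2% over the loci (interval 75.4 to 78.9%), from 75.8% in Dnmt3a to 83.0% in Dnmt3l. In Dnmt3l the interval, 77.3 to 87.5%, lay just above that of its flanks, 74.7 to 77.2%. In the other 4 loci the intervals overlapped, with 76.5% against 75.9% in Dnmt1, 75.8% against 78.2% in Dnmt3a, 79.9% against 75.7% in Dnmt3b and 77.0% against 75.7% in Uhrf1. In the other direction, 31.1% of 5hmC sites in Dnmt1, 31.1% in Dnmt3a, 31.4% in Dnmt3l and 33.6% in Uhrf1 were listed for 5fC, against 27.6%, 26.5%, 24.4% and 26.0% in their flanks, with intervals that did not overlap. Dnmt3b, at 22.5% against 24.3%, did not share this. Of dyads on a single strand for each mark, 358 of 456 had both marks on the same strand, or 78.5% (74.5 to 82.0%). The flanks held between 79.2% and 81.6%, and the intervals overlapped in each locus, Dnmt1 being the lowest at 72.8% against 80.5%. Site density and the read ratio were also above the flanks in Dnmt1, Dnmt3a, Dnmt3l and Uhrf1, the 4 loci where more 5hmC sites were listed for 5fC. In Dnmt3l, however, the read ratio was only 1.04 times that of the flanks, and 0.989 with sites of at least 10 reads. Median reads per site were above those of the flanks in Dnmt1 for 5hmC (10.0 against 9) and in Uhrf1 for both marks, but not in Dnmt3a (9 and 9 for 5hmC, 13 and 13 for 5fC) or Dnmt3l (8 against 9, and 12 and 12). The share of 5hmC sites listed for 5fC equals the 5fC to 5hmC site ratio times the share of 5fC sites listed for 5hmC. That site ratio was 0.407 in Dnmt1, 0.410 in Dnmt3a, 0.379 in Dnmt3l and 0.436 in Uhrf1. Their flanks had 0.363, 0.338, 0.322 and 0.343, and Dnmt3b had 0.282 against 0.322. The excess in Dnmt1, Dnmt3a and Uhrf1 thus largely restates the site ratio and is not a separate trait. The part of density and of the read ratio in these shares was not tested.

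CG made up less of the 5hmC list in 4 of the loci than around them. Its share was 68.1% in Dnmt1, 69.0% in Dnmt3a, 69.1% in Dnmt3l and 68.8% in Uhrf1, against 72.5%, 74.0%, 75.2% and 73.3% in the flanks, and the intervals did not overlap. In Dnmt3b it was 78.1% against 75.0%, with overlapping intervals. With at least 10 reads per site the share rose in every locus, to between 81.5% in Uhrf1 and 91.9% in Dnmt3b. The flanks were not counted at that limit, so the contrast with them was not tested there. For 5fC the CG shares lay between 71.1% and 75.7%. Outside CG, Dnmt1 held 245 CA, 160 CT and 121 CC sites for 5hmC, and Dnmt3a 295, 183 and 178. Most such sites had a CG 20 to 23 bases downstream, counted along their own strand, that was listed for the same mark on either strand. This held for 64.2% of 1681 for 5hmC (61.9 to 66.5%) and 61.6% of 589 for 5fC (57.6 to 65.5%). How often chance gives such a neighbour was not tested. For 5hmC the flanks held between 61.9% and 72.4%, and the intervals of locus and flanks overlapped except in Uhrf1, at 62.5% (55.3 to 69.2%) against 72.4% (71.0 to 73.8%). Sites were split evenly over the strands for 5hmC, with 50.1% on the plus strand. The 5fC sites of Dnmt1, at 54.5% plus (50.8 to 58.3%), were the only set of the 10 whose interval excluded 50%.

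**Figure D5:**
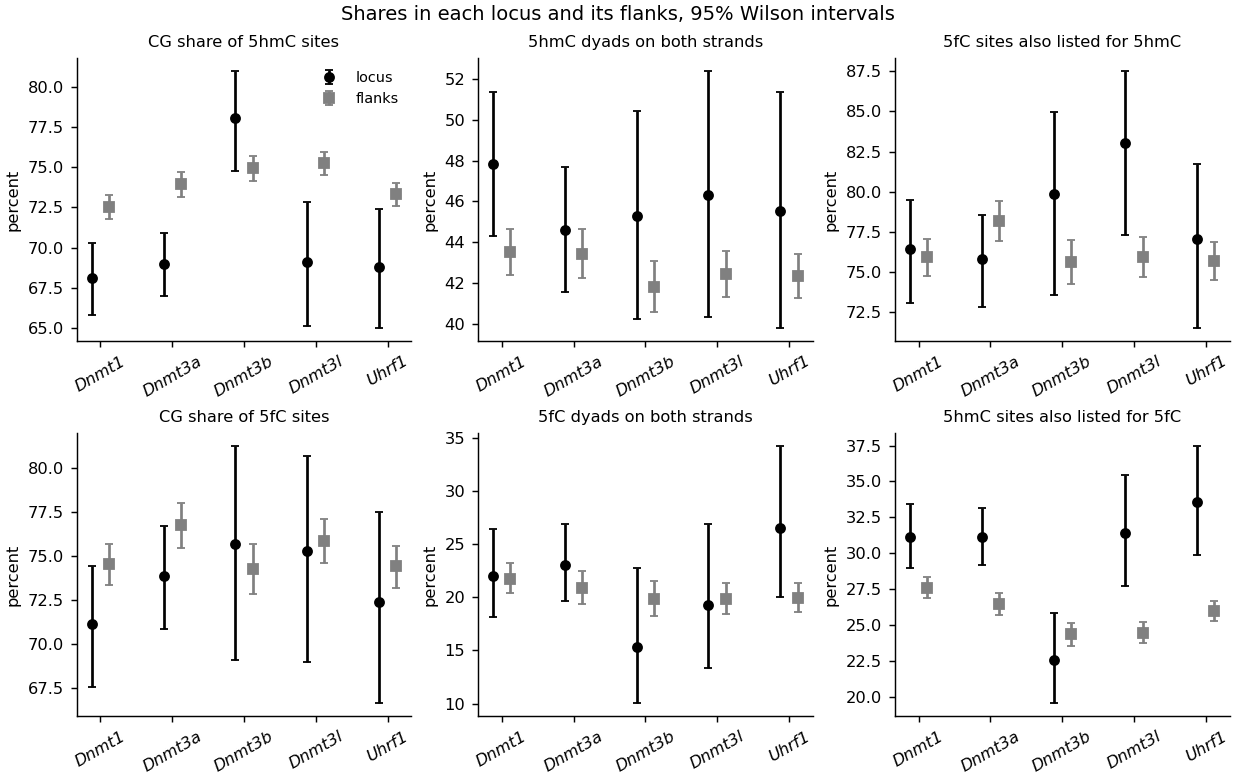
Percent of sites or dyads (vertical axes, not starting at 0) in each locus (black circles) and its flanks (grey squares), with 95% Wilson intervals. In Dnmt1, Dnmt3a, Dnmt3l and Uhrf1 the CG share of 5hmC sites lies below the flanks and the share of 5hmC sites also listed for 5fC above them, while Dnmt3b does neither.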

How the data were processed

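Genomic DNA of E14 cells was profiled by Pvu-Seal-seq in 6 libraries. The authors deposited 1 table per mark, holding a whole-number count of reads for each listed cytosine, not normalized and pooled over libraries. The submitters' processing notes name CASAVA, bcl2fastq, cutadapt and Bowtie, without versions, and the build mm9. Not given in the sources used here are the separation of 5fC from 5hmC, the assignment of cut ends to cytosines, the definition of common sites and which 5hmC libraries were summed. The least count in either table was 2, and summed counts are not the sequencing depth.

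Tables were read in full, 1-based positions were used, and sites, reads, CG dyads and 2 kb bins were counted in the 5 intervals and in 500 kb on each side. Density ratios carry the Wilson interval of the locus's share of sites in locus plus flanks. All 5 loci were named. In each, the text names the bin with the most 5hmC sites, that with the most 5fC reads, and dyads among the 3 deepest of each mark. The planned runs of bins without a 5hmC CG did not occur, and stretches between listed CG cytosines were used in their place, chosen after the data were seen. So were the match of RefSeq start windows, accepted with at least 7 listed cytosines and 2 times those of the next position, and the bins rich in 5hmC with few 5fC sites. The rule for the loci uses no measured value, but the genes, their intervals and the lists were chosen with earlier results of these data known. Promoter sequences and gene strands are from RefSeq (GRCm38.p6). No p-values are given. Each counting function was tested on simulated data, and 8 of 8 checks passed. Python 3.11.15, numpy 2.4.6, pandas 2.3.3, scipy 1.17.1 and matplotlib 3.10.9 were used.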

Additional observations from a re-analysis of the deposited data

How the results depend on the processing

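No paired analysis was possible because reads of the replicates are summed in the deposited tables, and leaving out each replicate was not run for the same reason. With at least 10 reads per site, 5hmC density against flanks moved to 2.06 in Dnmt1 and 1.42 in Uhrf1, and 5fC density to 1.93 in Uhrf1. The read ratio against flanks then became 1.06 in Dnmt1, 1.05 in Dnmt3a, 0.802 in Dnmt3b and 0.989 in Dnmt3l, where it fell below 1. The CG share of 5hmC sites rose to 84.2% in Dnmt1, 84.4% in Dnmt3a, 91.9% in Dnmt3b, 84.1% in Dnmt3l and 81.5% in Uhrf1, and that of 5fC to 77.8% in Dnmt3a and 82.6% in Dnmt3b. 5hmC dyads on both strands fell to 29.7%, 24.1%, 23.1%, 29.2% and 26.6% in the same order of genes. For 5fC they fell to 17.3% in Dnmt3a, 9.76% in Dnmt3b and 10.7% in Dnmt3l. 5fC sites also listed for 5hmC fell to 61.2% in Dnmt1, 61.3% in Dnmt3a, 68.3% in Dnmt3l and 61.5% in Uhrf1, and 2 bins were left without a 5hmC CG. With CG sites alone, 5hmC density was 1.79 in Dnmt1 and 1.34 in Dnmt3a, and the read ratio 1.5 in Uhrf1. By reads in place of sites, 5hmC density was 1.40 in Dnmt3l and 1.48 in Uhrf1, and 5fC density 1.58 in Dnmt3a and 2.06 in Uhrf1. With flanks of 250 kb, 5hmC density was 1.71 in Dnmt1, 1.29 in Dnmt3a, 1.11 in Uhrf1 and, turned round, 0.977 in Dnmt3b. 5fC density was then 1.93 in Dnmt1, 1.52 in Dnmt3a, 1.42 in Uhrf1 and 0.802 in Dnmt3b. The main 5fC value of Dnmt3b, 1.03, had an interval that included 1. The read ratio was 0.806 in Dnmt3b and 1.14 in Dnmt3l. Shifting bins by 1 kb changed no count of bins by more than 1.5 times. The cause of these moves was not tested beyond what each setting removes. Depth behind single values is low, with medians of 8.00 to 14.0 reads per listed cytosine in the loci.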
